A study of Mus musculus with 6 samples.

Results

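The Frizzled receptors are the cell surface receptors for Wnt proteins. Their 10 mouse genes, Fzd1 to Fzd10, were followed across 3 mammary cell populations and 2 genotypes. The members were taken by name: every array probe, controls apart, that the array design labels with one of the 10 gene symbols. This gave 16 probes of 41174, with 2 probes for each of Fzd2, Fzd3, Fzd5, Fzd7, Fzd8 and Fzd10 and 1 probe for each of the other 4 genes. All 16 passed the filter on dim probes, which asked for a signal well above background on at least 2 of 6 arrays and left 36640 probes. Of the 16, 13 were well above background on all 6 arrays, the dimmer Fzd2 and Fzd5 probes on 4, and the dimmer Fzd8 probe on 3.

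A Frizzled protein spans the membrane and binds Wnt through a cysteine-rich domain outside the cell. Together with the co-receptor Lrp5 or Lrp6 it passes the signal through Dishevelled to β-catenin, and with other partners it acts in planar cell polarity. In the mammary gland Wnt signalling is known for maintaining basal stem cells, and Fzd7 is the family member most often tied to the basal layer.

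Each of 6 2-colour arrays held RNA of 1 group, labelled with Cy5, against a reference RNA mixed from 11 mouse cell lines and labelled with Cy3. The groups were heterozygous for ΔNp63 (het) or wild type (WT), and ΔNp63 is the p63 isoform class without the N-terminal transactivation domain. In each genotype there was a P4 array (CD24+CD29hi cells, labelled as enriched for mammary stem cells), a P5 array (CD24+CD29lo cells, labelled as enriched for luminal progenitors) and an array of total mammary epithelial cells (MEC) without enrichment. All mice were virgin and of the C57/B6 strain, and neither their age nor the number of mice behind an array is given. The study concerns ΔNp63 and mammary stem cells, so the design implies het against WT and P4 against the other populations.

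No group had a second array, so no spread within a group exists. Each value below is a log2 ratio of sample over reference. The reference differs from gene to gene, so these ratios can be compared between arrays for 1 probe but not between genes. The technical SD of a log2 ratio, from 245 probes printed 10 times on every array, was 0.0938, or 0.133 for a difference of 2 arrays. It measures scatter between spots within an array and holds no variation between mice, sorts or labellings. Between 74.3% of the spots in WT P4 and 89.8% in het MEC were well above background in Cy5. The 4 sorted samples shared 1 slide and both MEC samples the other, so slide and the MEC comparison cannot be told apart. The het arrays lay at later positions on each slide than the WT arrays, and effects of genotype and of slide position likewise cannot be told apart.

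The sort was reflected in its markers. All 8 basal and myoepithelial markers were called higher in P4 than in P5, with a median difference of 5.31, and 9 of 10 luminal markers were called lower, with a median of -3.43. Trp63, the gene that encodes ΔNp63, stood at 5.49 in het P4 and 5.99 in WT P4, at 0.89 in het P5 and 0.54 in WT P5, and at 2.67 in het MEC and 3.71 in WT MEC. The het value was lower in P4 and MEC and higher in P5, and whether the probe lies in the altered part of the gene was not checked. The Trp63 difference in P4 was -0.50, and it ran from -0.94 to 0.89 over 6 ways of processing, so its sign there depends on the processing. In bulk RNA, fewer cells of a type and less RNA per cell cannot be told apart.

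A pair of probes lies in a stretch that related receptors share, which bears on what each can measure. The dimmer Fzd7 probe and the brighter Fzd2 probe align over 50 bases, of which 42 match. They are printed 5′ to 3′ with the 8 differing bases of the aligned stretch in capitals. The Fzd7 probe lies at chr1:59735681-59735740 and the Fzd2 probe at chr11:102715340-102715399, both on the plus strand of mm7, the build that the array design names.
Fzd7 (A_51_P142107): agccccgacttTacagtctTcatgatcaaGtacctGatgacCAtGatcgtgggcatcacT
Fzd2 (A_51_P404077): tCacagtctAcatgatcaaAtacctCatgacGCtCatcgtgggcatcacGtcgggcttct
The brighter Fzd7 probe, A_52_P552665, lies downstream at chr1:59737506-59737565 on the same strand. The dimmer Fzd3 probe is shown because its 60 bases map to chr14:60072091-60094840 on the minus strand, a span of 22750 bases, so its bases are not contiguous in the genome. It holds no capitals.
Fzd3 (A_52_P168231): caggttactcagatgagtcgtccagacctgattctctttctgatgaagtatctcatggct
No gene annotation of mm7 was used here, so the probes are not assigned to coding sequence or UTR.

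Across the family, 3 of 16 probes were called higher in P4 than in P5 and 0 lower. They were the brighter Fzd7 probe at 2.73, the brighter Fzd3 probe at 1.25 and the Fzd9 probe at 0.94. Among all 36640 probes 6.97% were called higher and 7.04% lower, so the count in this small family is read beside that background. Of the 16 differences 12 were positive, with a median of 0.31, against a median of 0.05 and 57.2% positive among all probes. With local backgrounds as given 10 of 16 were positive, and in the Cy5 level alone 11.

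**Figure D1:**
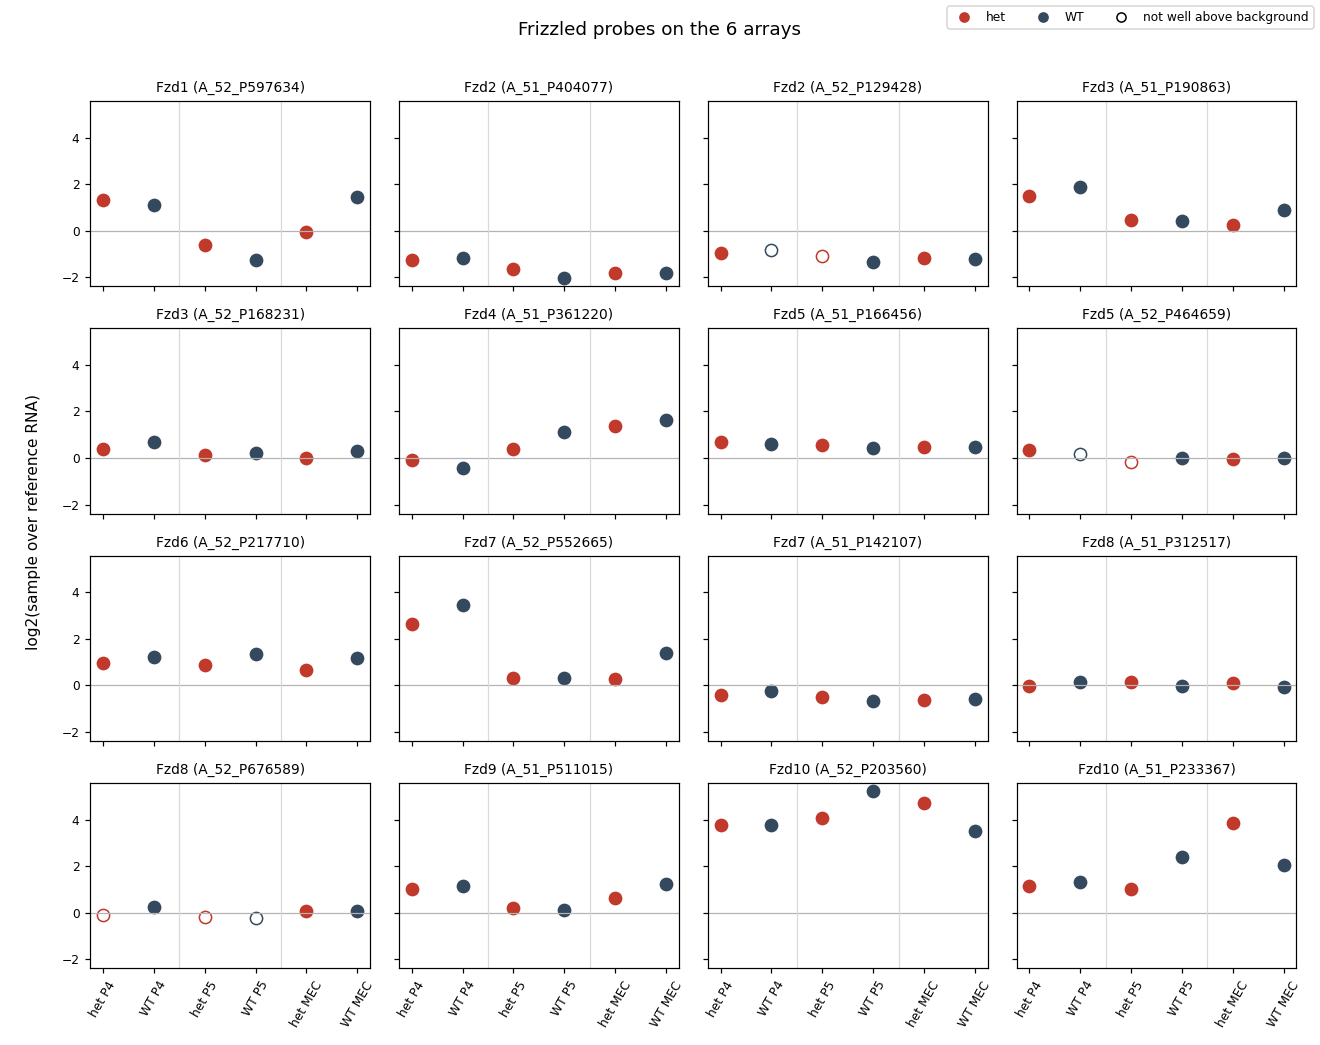
Log2 ratio of sample over reference RNA for each of the 16 Frizzled probes (panels, with the probe name in brackets) on the 6 arrays, het in red and WT in dark blue, open circles where the probe was not well above background. The brighter Fzd7 probe reaches 2.65 and 3.45 on the P4 arrays and stays at or below 1.39 elsewhere, and both Fzd10 probes have WT P5 and het MEC as their highest arrays.

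Fzd7, Fzd1 and Fzd2 form a closely related branch of the family. The brighter Fzd7 probe read 2.65 in het P4 and 3.45 in WT P4, 0.33 in het P5 and 0.32 in WT P5, and 0.25 in het MEC and 1.39 in WT MEC. Both P4 arrays lay above all others, WT MEC came next, and the lowest 3 arrays differed by less than the technical SD of a difference. Its P4 minus P5 difference was 2.73 (SE 0.28), which is 6.62-fold, with limma's Benjamini-Hochberg adjusted p = 0.00597. Within each genotype the difference was 2.33 in het and 3.13 in WT. The size varied between 1.49 and 2.73 over the other ways of processing, with the lowest for the mean of both probes. In limma the call was lost without the WT P4 array (adjusted p = 0.139) and without the het P4 array (adjusted p = 0.106), where 0 of all probes were called in either case.

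The dimmer Fzd7 probe showed the same order of P4 over P5 on a far smaller scale. It read -0.41 in het P4 and -0.24 in WT P4, -0.48 in het P5 and -0.66 in WT P5, and -0.64 in het MEC and -0.58 in WT MEC. The P4 values were again the highest, but the whole range of the 6 arrays was 0.42, against 3.198 for the brighter probe. The P4 minus P5 difference was 0.24 (SE 0.15, limma adjusted p = 0.343). Its Cy5 signal lay between 86.3 and 133 scanner units over a median local background of 34.5 to 36, whereas the brighter probe gave 284 to 2107. The Fzd7 results below therefore rest on 1 probe.

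Fzd1 showed the largest difference that missed the threshold. Its probe read 1.30 in het P4 and 1.10 in WT P4, -0.62 in het P5 and -1.27 in WT P5, and -0.07 in het MEC and 1.45 in WT MEC. Both P4 arrays lay above both P5 arrays, with het MEC between them and WT MEC above all. The P4 minus P5 difference was 2.14 (SE 0.51), 4.42-fold, with a limma adjusted p of 0.0507. It passed when probes had to be above background on all 6 arrays (adjusted p = 0.0461) and in the 4 sorted arrays alone (adjusted p = 8.44e-06), a fit that called 9623 probes in all.

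Fzd2 was below the reference on every array. The brighter probe read -1.26 in het P4 and -1.17 in WT P4, -1.65 in het P5 and -2.02 in WT P5, and -1.82 in het MEC and -1.81 in WT MEC. The P4 arrays were the highest, with a P4 minus P5 difference of 0.62 (SE 0.16, limma adjusted p = 0.0666). It passed in the sorted arrays alone (adjusted p = 0.0208), where 26.3% of all probes were called, and stood at 0.18 with median centring. The dimmer probe ranged from -1.36 to -0.84 with a difference of 0.34 (SE 0.15, adjusted p = 0.193), and was not well above background in WT P4 and het P5.

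Fzd3 and Fzd6 are the receptors best known for planar cell polarity. The brighter Fzd3 probe read 1.48 in het P4 and 1.88 in WT P4, 0.46 in het P5 and 0.41 in WT P5, and 0.27 in het MEC and 0.91 in WT MEC. Both P4 arrays lay above the other 4. The P4 minus P5 difference was 1.25 (SE 0.20), 2.37-fold, with a limma adjusted p of 0.0174. With local backgrounds as given it was 0.53 and not called (adjusted p = 0.232), and without the WT P4, WT P5 or het P4 array it was not called either, with adjusted p between 0.088 and 0.208. The dimmer probe, shown above, read between 0.00 and 0.68, highest in WT P4, with a difference of 0.35 (SE 0.14, adjusted p = 0.158). A further probe, labelled D930050A07Rik on the array and tied to Fzd3 by its accession, gave a P4 minus P5 difference of 1.12 (limma adjusted p = 0.0314).

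Fzd6 did not follow Fzd3. Its probe read 0.98 in het P4 and 1.23 in WT P4, 0.87 in het P5 and 1.36 in WT P5, and 0.65 in het MEC and 1.19 in WT MEC. The populations overlapped, with a P4 minus P5 difference of -0.0095 (SE 0.14, limma adjusted p = 0.974).

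Fzd4, Fzd9 and Fzd10 make up another branch, and each had its own pattern. Fzd4, which also serves as the receptor for the non-Wnt ligand norrin, read -0.10 in het P4 and -0.42 in WT P4, 0.41 in het P5 and 1.10 in WT P5, and 1.40 in het MEC and 1.63 in WT MEC. Here both P4 arrays were the lowest and both MEC arrays the highest. The P4 minus P5 difference was -1.01 (SE 0.25), 2.02-fold lower, with a limma adjusted p of 0.0577. It passed in the 4 sorted arrays alone (adjusted p = 0.00689), where 26.3% of all probes were called.

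Fzd9 read 1.03 in het P4 and 1.13 in WT P4, 0.18 in het P5 and 0.11 in WT P5, and 0.64 in het MEC and 1.23 in WT MEC. Both P4 arrays lay above both P5 arrays, and WT MEC was the highest of all. The P4 minus P5 difference was 0.94 (SE 0.19), 1.92-fold, with a limma adjusted p of 0.0350. It was 0.55 with local backgrounds as given (adjusted p = 0.126) and 0.78 in the Cy5 level alone (adjusted p = 0.0988). Without the WT P4, WT P5 or het P4 array the adjusted p lay between 0.222 and 0.276.

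The Fzd10 probes were highest in WT P5 and het MEC. The brighter probe read 3.76 in het P4 and 3.77 in WT P4, 4.09 in het P5 and 5.21 in WT P5, and 4.69 in het MEC and 3.5 in WT MEC. The dimmer probe read 1.13 and 1.34 in the het and WT P4 arrays, 1.03 and 2.39 in the P5 arrays, and 3.84 and 2.06 in the MEC arrays. The order of those highest arrays was opposite on the 2 probes. The P4 minus P5 differences were -0.88 (SE 0.51, limma adjusted p = 0.326) and -0.48 (SE 0.69, adjusted p = 0.705), and without the WT P5 array they were -0.03 and 0.59. In the 4 sorted arrays alone, where limma called 26.3% of all probes, the brighter probe passed (adjusted p = 0.0181). The dimmer did not (adjusted p = 0.179). Within genotypes the P4 minus P5 difference of the brighter probe was -0.33 in het and -1.44 in WT. The Cy3 signal of the brighter probe, which should come from the common reference, was 269 in het MEC and 363 in WT P5 but 108.5 to 124.3 on the other 4 arrays, and its part in the ratios was not tested.

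Fzd5 and Fzd8, a pair of close relatives, varied least. The brighter Fzd5 probe lay between 0.43 and 0.68 on all arrays, and the brighter Fzd8 probe between -0.05 and 0.15. Their P4 minus P5 differences were 0.14 (SE 0.13, limma adjusted p = 0.528) and 0.02 (SE 0.15, adjusted p = 0.943), and both changed sign with local backgrounds as given. The dimmer Fzd5 probe gave 0.34 (SE 0.15, adjusted p = 0.212) and the dimmer Fzd8 probe 0.27 (SE 0.16, adjusted p = 0.331). By the array design the dimmer Fzd5 probe lies on the plus strand and the brighter one on the minus strand. Whether the dimmer Fzd5 probe measures Fzd5 RNA was not checked. Of the 4 sorted arrays, the dimmer Fzd8 probe was well above background on WT P4 alone. A further probe, labelled AI427138 and tied to Fzd5, gave 0.19 (adjusted p = 0.466).

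Markers of other cell types were also read between P4 and P5. On the log2 scale of the summed Cy5 level, the 8 fibroblast markers came to 15.3 in het P4 and 14.8 in WT P4, against 14.3 in het P5 and 13.3 in WT P5, and 3 of 8 were called higher. The 6 adipocyte markers came to 15.4 and 14.5 in the het and WT P4 arrays, against 14.5 and 12.9 in the P5 arrays, with 0 called. Such a sum mostly follows its brightest genes. P4 minus P5 was 1.26 for Fabp4 and 1.16 for Cfd, but 0.07 to 0.34 for Adipoq, Plin1, Cidec and Lep. The 8 endothelial markers came to 11.9 on both P4 arrays, against 11.7 in het P5 and 11.3 in WT P5, with 1 called higher and 1 lower. The 8 immune markers came to 12.4 in het P4 and 11.98 in WT P4, against 11.8 in het P5 and 11.4 in WT P5. The 4 erythroid markers lay between 10.3 and 11 on all 4 arrays, with 0 called in both lists. All fibroblast, endothelial and adipocyte markers were well above background on every array. Their part in the Frizzled differences was not tested.

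**Figure D2:**
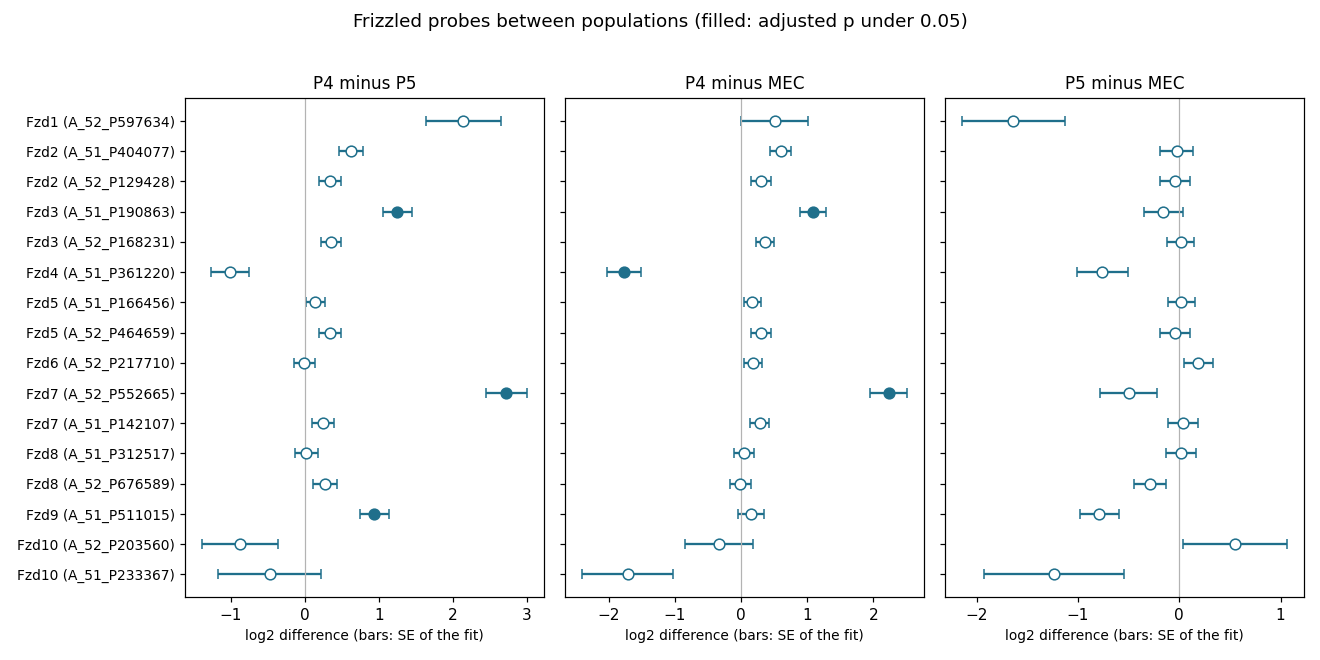
Log2 differences of the 16 Frizzled probes between populations in the limma fit of population and genotype, with bars for the standard error of the fit, and filled circles for an adjusted p under 0.05. Fzd7 at 2.73, Fzd3 at 1.25 and Fzd9 at 0.94 are filled in P4 minus P5, Fzd4 at -1.77 is the only filled probe below 0, and none is filled in P5 minus MEC.

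Against total MEC, 2 probes were called higher in P4 and 1 lower. The brighter Fzd7 probe was higher by 2.23 (SE 0.28, limma adjusted p = 0.0112), the brighter Fzd3 probe was higher by 1.09 (SE 0.20, adjusted p = 0.0247), and Fzd4 stood at -1.77 (SE 0.25, adjusted p = 0.0145). Of all probes 8.28% were called higher and 7.94% lower. Median centring, which put the median difference of all probes at -0.37 in place of 0.03, left Fzd7 at 0.78 (adjusted p = 0.0366). The Fzd3 call was lost with local backgrounds as given, in the scanner software's ratios and in the Cy5 level alone. The limma adjusted p values were 0.199, 0.0573 and 0.0755. Without the WT P4 array the differences were 2.11 for Fzd7, 1.04 for Fzd3 and -1.38 for Fzd4. Without the het P4 array they were 2.35, 1.14 and -2.16, and either fit rests on a lone P4 array.

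Fzd4 was the member called lower in P4 than in MEC, and markers of several cell types were lower as well. Of the luminal markers 9 of 10 were called lower in P4 than in MEC, with a median difference of -2.25. Of the fibroblast markers 7 of 8 were called lower in P4 than in MEC, with a median difference of -3.18, as were 7 of 8 endothelial markers, with a median of -1.98. Summed fibroblast markers reached 17.6 in het MEC and 18.5 in WT MEC, and summed endothelial markers 14.8 and 14.9. The part of these cells in the Fzd4 difference was not tested. The dimmer Fzd10 probe stood at -1.72 (SE 0.69, limma adjusted p = 0.154), with both P4 arrays below both MEC arrays, and at -0.44 without the het MEC array. The brighter Fzd10 probe stood at -0.33 (SE 0.51, adjusted p = 0.707), with -0.93 in het and 0.27 in WT, so it did not share that order. The dimmer Fzd7 probe gave 0.28 (SE 0.15, adjusted p = 0.25) for P4 minus MEC, and Fzd1 gave 0.51 (SE 0.51, adjusted p = 0.546), with 1.37 in het and -0.35 in WT.

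For P5 against MEC 0 of 16 probes were called, against 2.44% of all probes called higher and 4.39% lower. An unadjusted limma p under 0.05 was found for 3 of the 16, and for 9044 of all 36640 probes. The lowest was Fzd1 at -1.64 (SE 0.51, limma adjusted p = 0.126). Fzd9 stood at -0.79 (SE 0.19, adjusted p = 0.0770), Fzd4 at -0.76 (SE 0.25, adjusted p = 0.143) and the brighter Fzd7 probe at -0.50 (SE 0.28, adjusted p = 0.349). Within genotypes the Fzd7 difference was 0.07 in het and -1.07 in WT. With median centring 8 of 16 probes were called, Fzd1 at -2.77 and Fzd7 at -1.30 among them, but so were 55.7% of all probes.

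The genotype comparison asked whether Frizzled levels follow ΔNp63 dosage. As a mean over the 3 populations, limma called 0 of 16 probes, and 0 of all 36640 (0% of probes), where 5423 had an unadjusted p under 0.05. In the 4 sorted arrays alone 2458 of all probes were called (6.71%), and 0 Frizzled probes. The smallest adjusted p of all probes in the fit of 6 arrays was 0.267, and 2 Frizzled probes, Fzd6 and the brighter Fzd7 probe, had an unadjusted p under 0.05. Fzd6 was at -0.43 (SE 0.12, limma adjusted p = 0.268) and Fzd7 at -0.64 (SE 0.23, adjusted p = 0.307). With local backgrounds as given they were at -0.18 (adjusted p = 0.466) and -0.33 (adjusted p = 0.377).

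Within populations, where 1 het array is set against 1 WT array without a test, the differences were unlike each other. In P4 0 of 16 Frizzled probes were 2-fold apart, against 3.04% of all probes at least 2-fold higher in het and 0.559% lower. In P5 2 probes were at least 2-fold lower in het and 0 higher, against 1.01% lower and 1.83% higher among all probes. In MEC 2 were higher and 2 lower, against 0.979% higher and 0.89% lower. These shares are of probes well above background on at least 1 of the 2 arrays. The 2 probes lower in P5 and the 2 higher in MEC are the same probes, both of Fzd10, so each pair stands for 1 gene. The medians over the 16 probes were -0.13 in P4, 0.06 in P5 and -0.05 in MEC, against 0.04, 0.04 and -0.0076 over all probes.

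Fzd7 was lower in het than in WT within P4 and within MEC, with 1 array on each side. On the brighter probe the het minus WT difference stood at -0.80 within P4, at 0.0023 within P5 and at -1.14 within MEC. The differences in P4 and MEC exceed the technical SD of a difference several times over, and that in P5 does not. Under the other ways of processing the P4 difference lay between -1.19 and -0.17, the smallest with local backgrounds as given, and the MEC difference between -1.31 and -0.60. The dimmer probe gave -0.17 in P4, 0.18 in P5 and -0.06 in MEC.

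Fzd1 gave the lowest value of the family between genotypes, in MEC. Its het minus WT difference was -1.52 there, 2.87-fold lower, with a range of -1.81 to -1.38 over the other ways of processing, while it was 0.20 in P4 and 0.66 in P5. With median centring those were -0.38 and 0.17. Fzd9 and Fzd3 were also lower in het MEC, at -0.59 and, on the brighter Fzd3 probe, -0.64, but at -0.08 and -0.10 with local backgrounds as given. In P4 they stood at -0.10 and -0.40, and with local backgrounds as given at 0.48 and 0.71, so their sign in P4 depends on that setting. The probe labelled D930050A07Rik gave -0.83 in MEC, -0.55 in P4 and 0.0015 in P5.

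Fzd6 was lower in het in all 3 populations, at -0.25 in P4, -0.49 in P5 and -0.54 in MEC. With local backgrounds as given the P4 difference was 0.11. Fzd4 stood at 0.33 in P4, -0.69 in P5 and -0.23 in MEC. These were 0.07, -0.56 and 0.24 with local backgrounds as given, so the sign in MEC depends on that setting. Fzd5 and Fzd8 lay between -0.37 and 0.19 in every population on all 4 probes, and Fzd2 between -0.09 and 0.37 on both. In the scanner software's ratios the dimmer Fzd5 probe was at -1.44 in P5 and the dimmer Fzd8 probe at -1.68 in P4, each with an array not well above background.

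Fzd10 moved oppositely in P5 and MEC. The brighter probe was at -1.12 in P5 and 1.19 in MEC, and the dimmer probe at -1.35 in P5 and 1.78 in MEC, while in P4 they were at -0.01 and -0.21. In the Cy5 level alone the brighter probe was at -2.20 in P5 and 2.47 in MEC. In the scanner software's ratios these were -0.43 and 0.69. With local backgrounds as given the P4 difference of the brighter probe was 1.54.

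**Figure D3:**
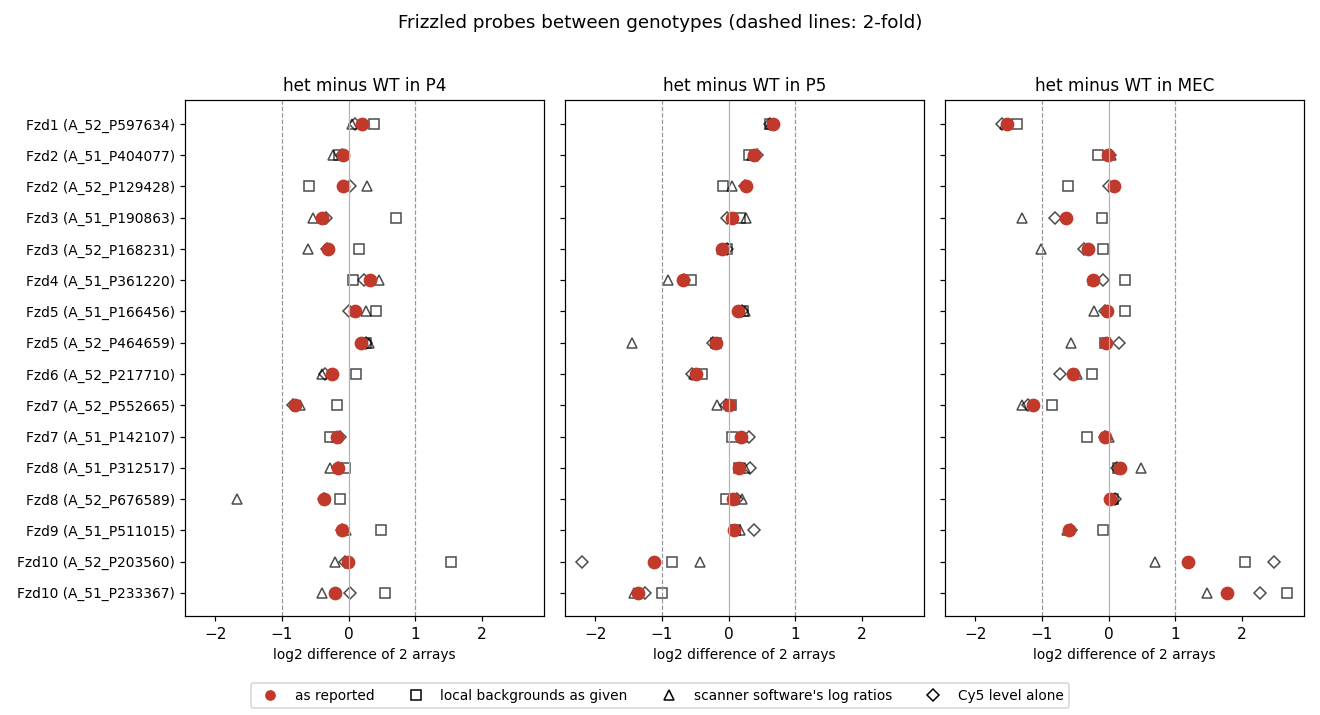
Log2 difference of the het array minus the WT array in P4, P5 and MEC for the 16 Frizzled probes, with filled circles for the values reported and open symbols for local backgrounds as given, the scanner software's ratios and the Cy5 level alone. Dashed lines mark 2-fold. The Fzd10 probes lie at -1.12 and -1.35 in P5 and at 1.19 and 1.78 in MEC, and Fzd1 and Fzd7 lie at -1.52 and -1.14 in MEC.

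Cell type markers differed between genotypes too. In P5 the 8 fibroblast markers had a median het minus WT difference of 1.02, with 0 lower and 4 at least 2-fold higher, the 8 basal markers a median of 0.67 and the 10 luminal markers -0.36. In P4 the medians were 0.55 for fibroblast, 0.25 for basal and -0.12 for luminal markers. All 8 fibroblast markers were lower in het MEC than in WT MEC, with a median of -0.88, and their summed log2 level was 17.6 in het MEC and 18.5 in WT MEC. The 8 basal markers had a median of -0.23 with 5 lower, and the 10 luminal markers a median of 0.47 with 3 lower. Endothelial markers had a median of -0.04, adipocyte markers -0.07, immune markers -0.19 and erythroid markers 0.17. The part of such differences in the Frizzled values of P4, P5 and MEC was not tested.

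The partners of the Frizzled receptors were read from 5 lists, in the same fit. Of 7 co-receptors and other Wnt-binding receptors 4 were called higher in P4 than in P5 and 0 lower, with a median of 0.70. For this and the other 4 lists the shares over all probes are the 6.97% called higher and 7.04% lower given above. Each listed gene stands by its probe of the highest mean Cy5 level, whereas those shares take in dim probes too. Of probes above background on all 6 arrays 16.6% were called in either direction, against 14% of all probes. Ror1, a receptor for Wnt5a, stood at 1.44 in het P4 and 1.69 in WT P4, against 0.02 in het P5 and 0.05 in WT P5. The Ror1 difference was 1.53 (limma adjusted p = 0.0105). Its probe was well above background on 4 of 6 arrays. Over 6 ways of processing the difference ran from 0.76 to 4.30, and it was called in 5. Ptk7, a Wnt-binding pseudokinase, differed by 1.21 (adjusted p = 0.0112) and Ryk, another kinase-dead Wnt receptor, by 1.19 (adjusted p = 0.00929). The fourth was Lrp6, the co-receptor of the β-catenin route, at 0.70 (adjusted p = 0.0279), named here after its value was seen. Lrp6 ran from 0.11 to 0.80 over 6 ways of processing and was called in 3. With local backgrounds as given 1 of the 7 was called, which was Ryk.

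Of 8 cofactors, trafficking and turnover genes 3 were called higher in P4 than in P5 and 0 lower, with a median of 0.97. Both membrane ubiquitin ligases that remove Frizzled proteins from the cell surface were among them, Znrf3 at 1.57 (limma adjusted p = 0.0146) and Rnf43 at 1.32 (adjusted p = 0.0215). Ndp, which encodes norrin, the ligand of Fzd4, differed by 1.48 (adjusted p = 0.00537). Znrf3 and Rnf43 were called in all of 6 ways of processing and Ndp in 5.

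Of 3 Dishevelled genes, which encode the adaptor proteins on the inner side of the receptor, 0 were called in P4 minus P5 in limma, with a median of 0.26. Of 7 planar polarity partners 2 were called higher and 0 lower, Prickle2 at 2.45 (adjusted p = 0.00761) and Prickle1 at 1.14 (adjusted p = 0.0312). Prickle2 was called in all of 6 ways of processing and Prickle1 in 2. Of 6 genes with a Frizzled-like domain 1 was called higher, the hedgehog signal transducer Smo, at 0.68 (adjusted p = 0.0408), which was called in 1 of 6 ways.

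**Figure D4:**
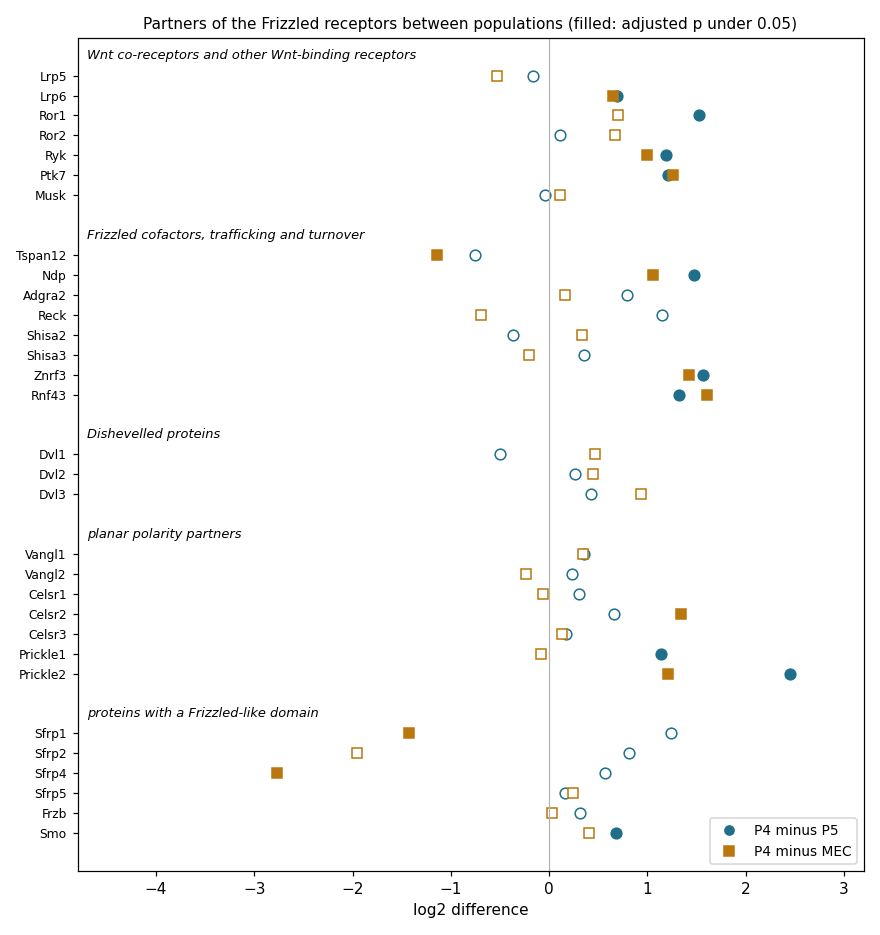
Log2 differences of the genes of 5 partner lists between populations, circles for P4 minus P5 and squares for P4 minus MEC, filled where the adjusted p is under 0.05. All 10 filled circles lie above 0, with Prickle2 at 2.45 the highest.

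By genotype 0 genes of the 5 lists were called in limma. Within populations few were at least 2-fold apart. Adgra2, a co-activator for Wnt7 ligands, was higher in het by 1.08 in P4 and by 1.12 in P5, Dvl3 by 1.30 in P4, and Celsr2, an atypical cadherin, by 1.41 in P4. Sfrp1 and Sfrp2 encode secreted Wnt-binding proteins. Sfrp1 stood at -1.18 in P4, Sfrp2 at -1.31 in MEC and Prickle2 at -1.03 in MEC. Each of these differences kept its sign over 6 ways of processing, but all except that of Sfrp2 fell short of 2-fold under some of them. Adgra2 ran from 0.46 to 1.12 in P4 and from 0.61 to 1.12 in P5. In P4 Dvl3 ran from 0.804 to 1.477, Celsr2 from 0.803 to 1.595 and Sfrp1 from -1.51 to -0.57. Prickle2 ran from -1.40 to -0.37 in MEC.

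The genes most like the brighter Fzd7 probe were found by the root mean square difference of log2 ratios, each centred on its own mean, over the 6 arrays and 20807 candidate genes. The 5 nearest were Tes (0.132), Serpinb11 (0.135), Asph (0.186), Hs6st2 (0.197) and Cdh3 (0.202). Tes, a focal adhesion protein, read 2.48 in het P4 and 3.26 in WT P4, 0.24 in het P5 and 0.51 in WT P5, and 0.31 in het MEC and 1.35 in WT MEC. Cdh3, the P-cadherin of the basal layer, read 3.12 in het P4 and 3.61 in WT P4, 0.56 in het P5 and 0.53 in WT P5, and 0.86 in het MEC and 1.38 in WT MEC. All 6 points share the arrays and the normalization with Fzd7, and with so many candidates a close match to some gene is to be found.

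For the other members the nearest gene by the same measure was Snhg18 for Fzd1 (0.197), Bcl7c for Fzd2 (0.0449), Gnl3 for Fzd3 (0.053), Acsl5 for Fzd4 (0.144), Sestd1 for Fzd6 (0.0617), Aplp1 for Fzd9 (0.0265) and Dap for Fzd10 (0.15). For Fzd5 and Fzd8, which hardly vary, it was Olfr645 (0.0194) and 4930488N15Rik (0.0309).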

How the data were processed

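RNA of 6 samples, 1 per group, was measured on 2-colour arrays, and the arrays' number limits the precision. Per the file headers, version 9.5.3.1 of Agilent's Feature Extraction made the authors' scanner files. In these deposited files the spot means and local background medians are raw intensity, and LogRatio is a log10 ratio, Cy5 over Cy3, which the software had corrected for background and dye. Columns of log2 ratios in a deposited table of the series follow that ratio (correlation across probes 0.988 to 0.999, medians -0.04 to 0.10), so scale and direction, sample over reference, are known. From the raw intensities limma 3.58.1 (R 4.3.3, with data.table version 1.17.8 and jsonlite 2.0.0) gave the log2 ratios used here: normexp with an offset of 50, loess within arrays with control and flagged spots at weight 0, and averaging of spots.

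Local backgrounds over 6 median absolute deviations from the array's median, 0 to 22 spots per channel, were replaced by that median. They had moved the normexp fit of whole arrays (mean background -559 as given and 0.22 replaced for Cy3 of WT P4). Replacement had been planned as the alternative and backgrounds as given as the main setting; the pair was turned round on these parameters.

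The additive limma fit of population and genotype left 2 residual degrees of freedom, and its residual holds interaction and noise. P-values were adjusted by Benjamini-Hochberg over all probes, threshold 0.05. The fit was tested on simulated data. Positions are those of the array design (mm7). Probes were named by RefSeq accession (22951 of 41174), by synonym (3109) or by the array's symbol. Each partner and marker gene stands by its probe of the highest mean Cy5 level, and further probes of these genes are not reported.

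Members, lists and tests were chosen with earlier results of these data known. Every Frizzled probe is named. Of each partner list, up to 3 genes called in P4 minus P5 and up to 2 with the largest het minus WT difference of at least 2-fold are named. For likeness, 5 genes are named for Fzd7 and 1 for each other member above background on all arrays. The alternatives are given in the closing section.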

Additional observations from a re-analysis of the deposited data

Results flagged for a closer look

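Differences between genotypes ran in opposite directions in P5 and MEC on 3 Frizzled probes, each beyond 3 technical SDs of a difference in both populations. That SD comes from spots repeated within an array, so passing it does not set a difference apart from variation between samples. Het minus WT in MEC minus that in P5 was -2.18 for Fzd1 (-1.52 in MEC and 0.66 in P5). With median centring the Fzd1 difference in P5 was 0.17, under 3 technical SDs. For Fzd10 it was 2.31 on the brighter probe (1.19 in MEC and -1.12 in P5) and 3.13 on the dimmer probe (1.78 in MEC and -1.35 in P5). With 1 array per group the difference between populations was not tested.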

How the results depend on the processing

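The number of Frizzled probes called in P4 minus P5 was 3, in the fit as reported, which called 14% of all probes. It was 1 with local backgrounds as given and 7 in the P4 and P5 arrays alone, where 9.37% and 26.3% of all probes were called. Leaving out 1 array gave between 0 and 7, with 0 without WT P4 or het P4 (0% of all probes), 1 without WT P5 (3.88%), 5 without het P5 (11.8%), and 7 without either MEC array (26.3%). For P4 minus MEC the count of 3 became 9 with median centring (64.9% of all probes). When 1 array was left out, the brighter Fzd7 probe lay between 1.86 and 2.60 in P4 minus MEC. The brighter Fzd3 probe lay between 0.86 and 1.33, and Fzd4 between -2.16 and -1.38. For P5 minus MEC the count of 0 became 8 with median centring (55.7%), and 0 to 4 when 1 array was left out, with 1 without WT MEC (11.2%) and 4 without het MEC (15.9%). Median centring moved the median of all probes to -0.37 in P4 minus MEC and -0.33 in P5 minus MEC. It called 1530 probes higher and 4811 lower in P4 minus P5 (2555 and 2578 in the fit as reported). The counts were 6537 and 17230 in P4 minus MEC (3034 and 2910 as reported), and 4618 and 15801 in P5 minus MEC (893 and 1607). The genotype fit called 0 Frizzled probes under every alternative run, also where it called 2458 probes in all (6.71%), in the P4 and P5 arrays alone or without either MEC array.

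Probes 2-fold apart by genotype within P4 were 0, but 1 with local backgrounds as given (Fzd10), 1 in the scanner software's ratios and the series table (the dimmer Fzd8 probe, at -1.68) and 1 with median centring (Fzd7). Within P5 the count of 2 became 1 with local backgrounds as given, and in the scanner software's ratios it was the dimmer Fzd5 and Fzd10 probes, and within MEC it stayed between 3 and 5. Signs turned for P4 minus P5 in Fzd5 at -0.0535 and Fzd8 at -0.0347 with local backgrounds as given, in Fzd8 at -0.0032 in the Cy5 level alone, and when 1 array was left out, in Fzd6 (-0.14 to 0.12, positive without WT P4 or WT P5), Fzd8 (-0.14 to 0.18, negative without WT P4 or WT P5) and the dimmer Fzd10 probe (-1.55 to 0.59, positive without WT P5). With median centring 8 of 16 signs turned in P4 minus MEC and 8 in P5 minus MEC, and with local backgrounds as given 6 turned for het minus WT within P4. For P4 minus MEC those that turned include Fzd1 at -1.13 with median centring and when 1 array was left out (-0.47 without het MEC to 1.48 without WT MEC), and the dimmer Fzd7 probe at -0.0011 with median centring. The cause was not tested. Leaving out an array leaves a lone sample of its population, assumed to vary like the others. The fit passes through that sample exactly. Leaving out either MEC array therefore gave the same P4 minus P5 and genotype values as the P4 and P5 arrays alone, and is no separate check. All these fits leave fewer than the 2 residual degrees of freedom of the fit of 6 arrays. Genotype is a term of every fit, and the labels carry no replicate numbers for a further block.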
